A study of Mus musculus with 26 samples.

Results

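The repair of DNA double-strand breaks and of crosslinks between strands was followed through 39 genes in stressed mouse fibroblasts. The members were taken by symbol out of 20430 genes in the RNA table, and all 39 were found there and among the 19941 genes of the footprint table. The list was chosen by measured values for 1 gene, the helicase Pif1, selected on the fall of its RNA at 7 h of H2O2. Values of Pif1 that use its RNA in the control of H2O2 or at 7 h of H2O2, and values of every member for that contrast, are therefore given as a description, with no test. The other members, and the gene lists compared with them, were chosen with earlier results of these data known. Their p-values and counts may therefore not be independent of those results. NIH3T3, an established line grown from mouse embryo fibroblasts, was exposed to heat, to H2O2 or to KCl. Polyadenylated RNA was sequenced in 16 libraries of 8 groups: 44 °C for 2 h, 42 °C for 8 h and a control for heat, then H2O2 for 2 h, H2O2 for 7 h, KCl for 2 h (osmotic stress), KCl for 7 h and a control that H2O2 and KCl share. Ribosome footprints, the stretches of mRNA that a ribosome shields from nuclease, were sequenced in 10 libraries of the last 5 groups. Each group held 2 replicates, and no allele, transgene or drug was labelled beyond the stress. Neither the labels nor the files state the concentrations of H2O2 and KCl. Nothing says whether replicates came from separate cultures, so p-values measure the spread between these samples, which may be technical.

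A double-strand break is repaired along competing routes. Homologous recombination resects the ends and copies an intact sister, while end joining clamps the ends in the Ku ring and seals them. The Fanconi anemia proteins unhook crosslinks, and the kinases ATM and ATR halt the cell cycle while repair proceeds. Many genes of recombination are known to be transcribed around DNA replication, and the E2F factors drive much of that transcription.

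Letters of known motifs were searched in the promoters of the members. RefSeq promoters on GRCm38.p6, the assembly also called mm10, were matched for 28 of the 39 members, each running from 250 bases before to 50 bases after the start of the gene. Pif1, Wrn, Prkdc, Rad51d, Nbn, Exo1, Rbbp8, Rad50, Fancd2, Xrcc2 and Rad54b had no entry. The E2F letters, which are TTCCCGC and the variants with the letters TTCGCGC or with TTGCCGC or with TTGGCGC, on either strand, stood in the window of 19 of 28 members (67.9%, exact 95% interval 47.6 to 84.1). They stood in 10.9% of 27025 genes with a promoter and in 19.0% of the 10236 of these that passed the RNA filter. In the 250 bases before the start alone, 12 of 28 members (42.9%) held them, against 9.0% and 15.8%. The other 16 held none there. The 12 stretches are shown because the E2F letters differed the most in share between members and all genes among the motifs searched. Positions are relative to the start used in the promoter table. The stretches of Chek2, Brca2, Rad52, Fancg, Fancm and Xrcc6 lie within the gene as annotated from first to last base, that of Blm in part, and the other 5 outside it. Capitals mark the E2F letters, and each stretch reads 5′ to 3′ on the strand of the gene.
Chek2, chr5:110839821-110839847, plus strand: gggattagccGCGGGAAaccaagacgt
Brca2, chr5:150522443-150522469, plus strand: ttaggccacaGCGGGAAacagacacac
Rad52, chr6:119902556-119902582, plus strand: tgctgcggctGCGGGAAggctgatcgc
Fancb, chrX:164980410-164980436, plus strand: cggggtagagGCGGGAAtaagtgctct
Xrcc6, chr15:82016313-82016339, plus strand: gggggtggaaGCGGGAAatgcgagtgg
Bard1, chr1:71103164-71103190, minus strand: gccgctcagtTTCCCGCtcaggaagtt
Fancg, chr4:43010336-43010362, minus strand: tcttttcagtTTCCCGCggaaccgtct
Xrcc4, chr13:90089692-90089718, minus strand: cccgctgtgcTTCCCGCtcgctccagc
Fancm, chr12:65075486-65075512, plus strand: cgtcacacacTTCGCGCaatacgcatg
Lig4, chr8:9977745-9977771, minus strand: cctcccgggaGCGCGAAgccaacctgt
Blm, chr7:80535124-80535150, minus strand: atcatccttcTTGCCGCgcagagcgtg
Rad51c, chr11:87405006-87405032, minus strand: gcgcgcgtggGCGCCAAccactcccta

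TTTGAA, the cell cycle homology region known from mitotic genes, stood in 2 of 28 member windows (7.1%) against 20.2% of all genes. CCAAT stood in 16 (57.1%) against 41.1%, and before the start alone in 14 of 28 against 37.5% of all genes, more members than held E2F letters there. The antioxidant element TGACNNNGC stood in 4 (14.3%) against 14.0%. A p53 half-site was found in 3 (10.7%) against 9.6%, and the heat shock letters GAANNTTC in none against 9.0%. Both strands were read for each motif, and motifs were counted separately, so matches can overlap (CCAAT read on the reverse strand shares letters with TTGGCGC). The p53 and heat shock letters were added after values were seen. Brca1 is printed below, a choice made after its values were seen, because it had the largest rise at 44 °C and its window lay outside the annotated gene. In these 250 bases it held CCAAT, here in capitals, and none of the other motifs.
Brca1, chr11:101551956-101552205, minus strand: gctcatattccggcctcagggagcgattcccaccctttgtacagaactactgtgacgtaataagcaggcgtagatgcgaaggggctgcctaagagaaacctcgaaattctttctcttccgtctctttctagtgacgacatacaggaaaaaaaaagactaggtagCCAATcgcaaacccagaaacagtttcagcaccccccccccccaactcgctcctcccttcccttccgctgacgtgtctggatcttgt
A match is a description of letters, and binding was not measured.

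The RNA libraries held 24441877 to 45244430 expected counts and the footprint libraries 1460751 to 5168537, with the first replicate at 2 h of H2O2 the shallowest. Replicates correlated at 0.992 to 0.995 on the log2 scale in RNA and at 0.952 to 0.976 in footprints, across genes, and no pair of libraries was identical. Of 10 fibroblast markers, 9 lay above 1 TPM in every control RNA library and Fap did not, while the leukocyte genes Ptprc and Cd3e were listed at 0. No epithelial or endothelial marker passed 1 TPM, and the leukocyte marker Cd68 did. All 39 members passed the filter on low counts in every fit. CPM, the counts of a gene scaled by TMM factors to a library of 1000000, compare 1 gene between libraries, and TPM compare genes per length. Both are shares of the RNA in a library, so fewer cells with a transcript and less transcript per cell cannot be told apart, nor can a change in total RNA be seen.

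In the control shared by H2O2 and KCl, the members spanned 2.61 to 78.5 TPM in RNA. Xrcc6, which encodes a Ku subunit, was the highest at 78.2 and 78.8 TPM. It was followed by Nbn, of the complex that binds broken ends, at 56.4 and 58.1 TPM, and by the recombination gene Rad51ap1 at 45.3 and 47.6 TPM. Prkdc, the large kinase that Ku recruits, was the lowest at 2.55 and 2.67 TPM, below Brca2, a gene of recombination, at 3.99 and 4.40 TPM. The ranges of these 5 genes did not overlap, whereas Blm (18.96 to 20.28 TPM), Mre11a (18.89 to 20.36 TPM) and Chek1 (19.65 to 20.03 TPM) could not be ordered. In control footprints Xrcc6 was again the highest, at 52.5 and 53.7 TPM, and Palb2 had the lowest mean, from 1.58 and 1.66 TPM. Palb2, Brca2 (1.56 to 1.72 TPM), Xrcc3 (0.26 to 3.17 TPM) and Prkdc (1.54 to 2.38 TPM) overlapped there and could not be ordered. Pif1 ranked 11 of 39 in RNA at 20.5 and 22.4 TPM, and 33 of 39 in footprints at 3.03 and 3.57 TPM.

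**Figure D1:**
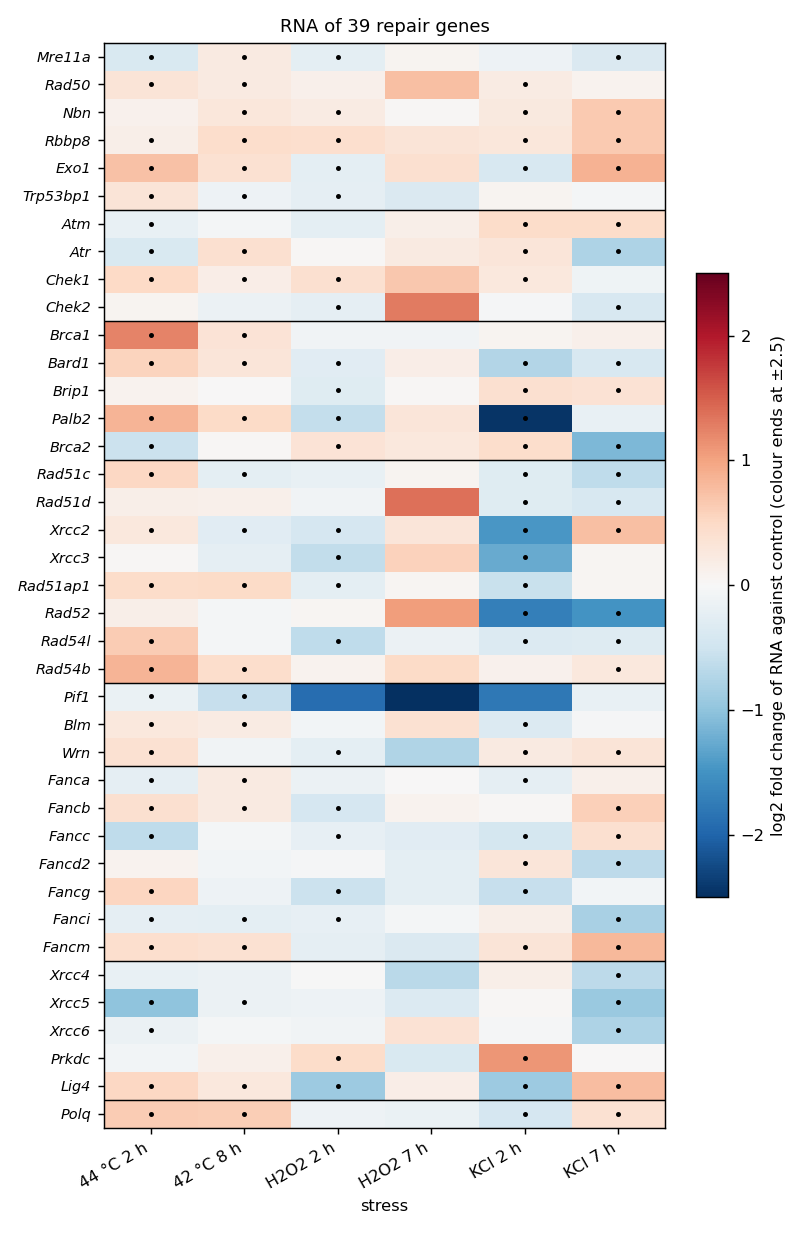
The log2 fold change of RNA against the matching control is shown in colour for 39 repair genes (rows, ordered by role) in 6 stresses (columns). Dots mark an adjusted p under 0.05 and are left out for 7 h of H2O2, the contrast that chose Pif1, and for Pif1 in all columns of H2O2 and KCl. Palb2 at 2 h of KCl and Pif1 in 3 columns stand out as dark blue, and the sign of many other genes differs between columns.

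Pif1 encodes a helicase that unwinds DNA from its 5′ end and resolves G-quadruplexes. Its RNA stood at 34.7 and 37.8 CPM in the control shared by H2O2 and KCl. After 2 h of H2O2 it stood at 8.85 and 10.5 CPM, and after 2 h of KCl at 10.8 and 10.2 CPM. Both treatments lay far below the control without overlap, where 39% (H2O2) and 37.9% (KCl) of all tested genes lay wholly below. The log2 differences were -1.90 ± 0.10 (SE) with H2O2 and -1.79 ± 0.10 with KCl. Both use the control libraries whose values helped to choose Pif1, so no test is given, and the counts of members called below include Pif1 at these contrasts. Between the stresses at 2 h the difference was -0.11 ± 0.11 for H2O2 against KCl, which was not called (edgeR adjusted p = 0.439).

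By 7 h the levels of Pif1 lay apart. In H2O2 they were 2.55 and 1.98 CPM, which is 84 and 50 counts and a log2 difference of -3.98 from control, the value that brought Pif1 into the list. In KCl they were 33.4 and 30.2 CPM, and the log2 difference from the same control was -0.18 ± 0.09. Between 2 h and 7 h of KCl Pif1 RNA rose 3.04-fold, by 1.60 ± 0.11 on the log2 scale (edgeR adjusted p = 9.99e-09). In heat, Pif1 stood at 29.2 and 27.0 CPM in controls, 24.6 and 25.8 CPM at 44 °C and 19.3 and 18.4 CPM at 42 °C. The fall at 42 °C was -0.57 ± 0.07 (edgeR adjusted p = 4.42e-06). The fall at 44 °C of -0.16 ± 0.06 (edgeR adjusted p = 0.0393) was lost without the first heat control library (edgeR adjusted p = 0.254) and without the first 44 °C library (edgeR adjusted p = 0.182), and also with DESeq2 (adjusted p = 0.17).

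Footprints of Pif1 did not follow its RNA at 2 h. They stood at 4.65 and 7.14 CPM in control (19 and 26 counts), 10 and 6.79 CPM after 2 h of H2O2, and 5.70 and 6.95 CPM after 2 h of KCl. The treated libraries overlapped the control, and the log2 differences were 0.44 ± 0.45 with H2O2 (edgeR adjusted p = 0.67) and 0.11 ± 0.46 with KCl (edgeR adjusted p = 0.938). The sign of the KCl value turned without the first control footprint library (-0.129) and without the second KCl library (-0.0394), and without the second control it was 0.443. Translational efficiency, footprints relative to RNA in 1 model of both kinds of library, differed from control by 2.25 ± 0.38 on the log2 scale with H2O2 and by 1.89 ± 0.41 with KCl. These values use the control RNA libraries and are a description.

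At 7 h of H2O2 the Pif1 footprints were 2.56 and 0.576 CPM, from 9 and 2 counts. Both lay under the control, a fall of 1.87 ± 0.55 on the log2 scale (edgeR adjusted p = 0.022) that missed the threshold without the second control library (-1.54, edgeR adjusted p = 0.124) and without the second H2O2 library (-1.22, edgeR adjusted p = 0.165). Without the first H2O2 library it was -3.31. The 7 h KCl libraries held 11.7 and 14.2 CPM of Pif1 footprints, above every control library, with a difference of 1.14 ± 0.42 that was not called (edgeR adjusted p = 0.0716). Efficiency there differed from control by 1.38 ± 0.34, again a description. Footprints at 7 h were lower in H2O2 than in KCl by 3.01 ± 0.52 on the log2 scale (edgeR adjusted p = 0.000512). Footprints read the mRNA whose fall chose Pif1, so the tests at 7 h of H2O2 may not be independent of that choice.

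**Figure D2:**
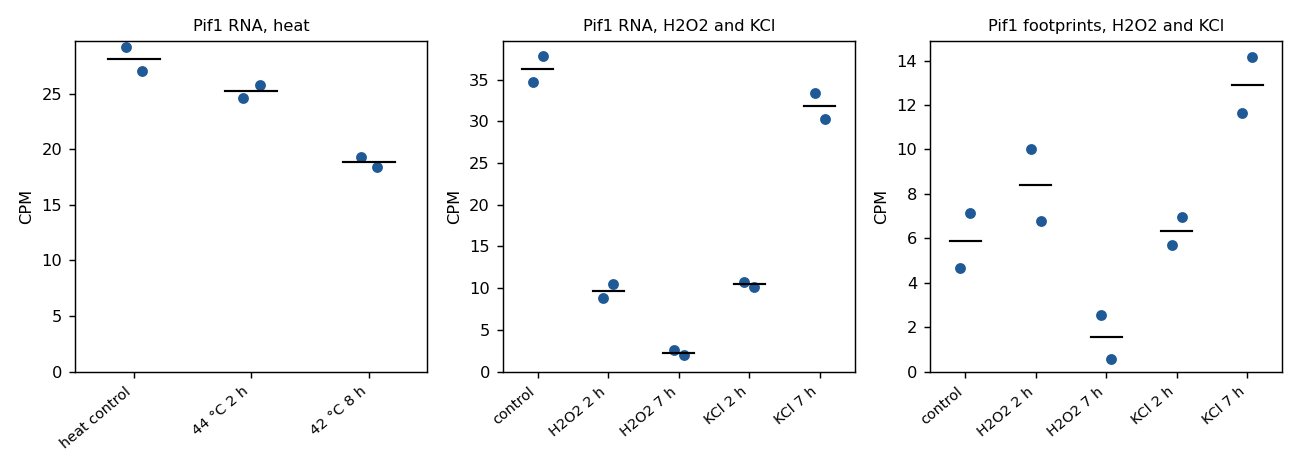
Pif1 in CPM (y axis from 0) is shown per library (points) with the group mean (line), for RNA in heat, RNA in H2O2 and KCl, and footprints in H2O2 and KCl. RNA was low at 2 h of both treatments and lay near control at 7 h of KCl only, while footprints at 2 h overlapped the control.

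KCl for 2 h moved the members in both directions. The RNA of 12 rose and of 17 fell, where 27.2% of all tested genes rose, 27% fell and 54.2% were called in all. The member median was -0.03 against 0 over all genes. Beyond a log2 change of 1, the RNA of 1 member rose and of 5 fell, against 7.17% and 5.56% of all genes. On log2(TPM + 1) the split was 5 and 16. Of the 4 checkpoint kinases 3 rose and none fell. Palb2, which ties BRCA1 to BRCA2, fell the most. It went from 11.98 and 11.06 CPM in control to 2.43 and 1.79 CPM, a 5.48-fold loss (log2 -2.45 ± 0.15, edgeR adjusted p = 9.26e-09).

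Rad52, which anneals single strands, fell from 8.54 and 7.26 CPM to 2.88 and 1.99 CPM (log2 -1.71 ± 0.15, edgeR adjusted p = 5.12e-07). Xrcc2, which acts in recombination, fell from 18.95 and 16.96 CPM to 6.58 and 6.48 CPM (log2 -1.46 ± 0.10, edgeR adjusted p = 2.76e-08). Xrcc3, which acts in the same route, fell from 10.6 and 10.2 CPM to 4.90 and 3.77 CPM (log2 -1.26 ± 0.12, edgeR adjusted p = 1.14e-06). No treated library of these genes reached a control library, which was also so for 37.9% of all tested genes. Lig4, the ligase that completes end joining, fell by 0.91 ± 0.09 on the log2 scale (edgeR adjusted p = 8.45e-07), and Bard1, the partner of BRCA1, by 0.74 ± 0.10 (edgeR adjusted p = 3.39e-05).

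Prkdc, the kinase bound by Ku, rose the most at 2 h of KCl. It stood at 10.2 and 10.4 CPM in control and at 18.1 and 26.0 CPM in KCl, 2.15-fold higher (log2 1.10 ± 0.13, edgeR adjusted p = 7.41e-06). Atm, the kinase that answers to breaks, rose from 51.7 and 51.2 CPM to 59.4 and 82.0 CPM (log2 0.46 ± 0.11, edgeR adjusted p = 0.00269). Brca2 rose from 20.3 and 22.1 CPM to 25.0 and 32.5 CPM (log2 0.44 ± 0.10, edgeR adjusted p = 0.00231). In all 3 genes the second KCl library was the higher, and the call for Brca2 was lost without it (0.236, edgeR adjusted p = 0.0546), while the value for Atm was 0.207. On log2(TPM + 1) the calls for Atm (limma adjusted p = 0.0604) and Brca2 (limma adjusted p = 0.0573) were lost as well.

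The fall at 2 h of KCl lay with the shorter members. Of the 13 shortest, with genes of 7.7 to 29.4 kb from first to last base, 11 fell and 1 rose, with a median of -0.58. Of the 13 of middle length (30.6 to 65.4 kb) 2 fell and 5 rose, and of the 13 longest (75.6 to 240.7 kb) 4 fell and 6 rose. Across the 39 genes the log2 fold change and log2 gene length had r = 0.607 and rho = 0.597, where the same r over 12888 tested genes was 0.103. At 2 h of H2O2 r was 0.526 (rho 0.422) among members and -0.019 over all genes, and at 7 h of KCl it was -0.051 among members. Other contrasts differed in sign. Among members r was -0.308 at 44 °C (-0.17 over all genes), 0.13 at 42 °C and -0.018 at 7 h of H2O2 (rho -0.395). For translational efficiency at 2 h of KCl it was -0.504 (-0.166 over all genes). The points share libraries, and H2O2 and KCl share the control. Genes are not independent, so these are descriptions. They include Pif1 (8.8 kb), whose values use control libraries that helped to choose it. Neither r nor the counts were computed without Pif1. Calls among all tested genes were not counted by length. Of tested genes of any length 27.2% rose and 27% fell at 2 h of KCl.

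**Figure D3:**
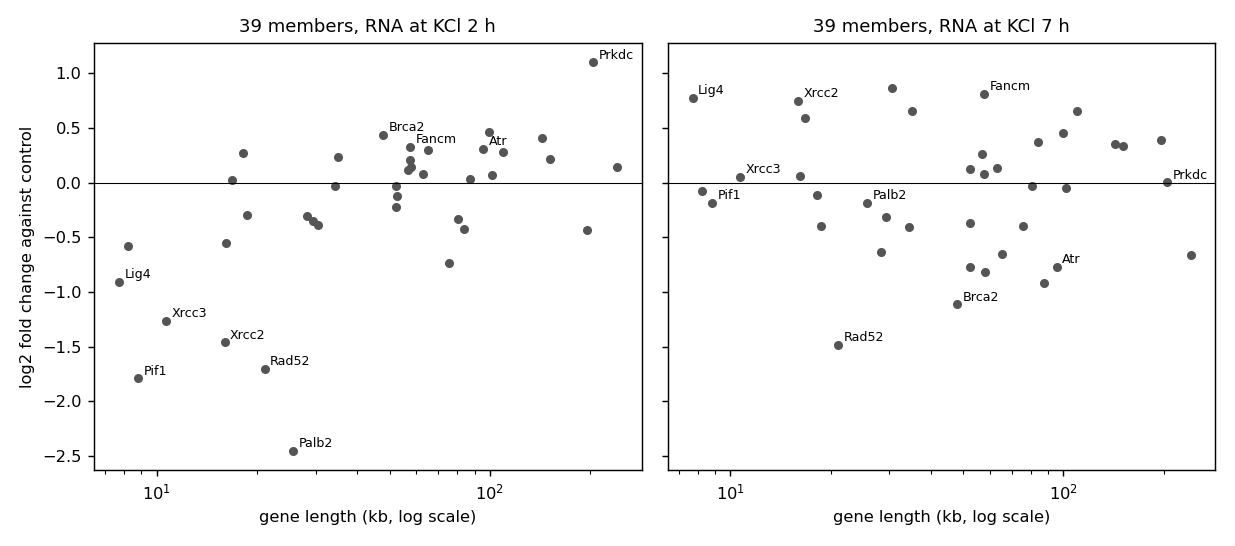
Gene length from first to last annotated base (kb, log x axis) is plotted against the log2 fold change of RNA (y axis) for 39 members, one point each, at 2 h and 7 h of KCl. At 2 h the points under -1 all belong to genes of 8.8 to 25.7 kb, Pif1 included, and at 7 h the low points spread over all lengths.

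KCl for 7 h left a mixed pattern. The RNA of 13 members rose and 14 fell, where 37.2% of all tested genes rose, 31.6% fell and 68.8% were called in all. None rose and 2 fell by more than 1 on the log2 scale, against 10.7% and 7.78% of all genes. The member median was -0.04 against 0.04 over all genes. Rad52 stayed low, at 2.679 and 3.002 CPM (log2 -1.49 ± 0.15 against control, edgeR adjusted p = 7.45e-07). Brca2, up at 2 h, fell to 9.61 and 9.98 CPM (log2 -1.11 ± 0.12, edgeR adjusted p = 9.75e-07). Of the 5 end joining genes, 3 fell and Lig4 rose. The Ku genes Xrcc5 and Xrcc6 fell, Xrcc5 from 29.3 and 29.3 CPM to 17.2 and 13.6 CPM (log2 -0.92 ± 0.09, edgeR adjusted p = 9.63e-07) and Xrcc6 from 74.6 and 72.8 CPM to 45.1 and 41.4 CPM (log2 -0.77 ± 0.07, edgeR adjusted p = 1.44e-07).

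Exo1, Fancm and Lig4 had the largest rises among members at 7 h of KCl. Exo1, the exonuclease of long resection, went from 27.8 and 27.4 CPM to 49.4 and 51.3 CPM (log2 0.87 ± 0.07, edgeR adjusted p = 8.11e-08). Fancm, which anchors the Fanconi core complex, went from 28.0 and 26.7 CPM to 47.9 and 48.2 CPM (log2 0.81 ± 0.09, edgeR adjusted p = 1.82e-06). Lig4 went from 18.1 and 18.1 CPM to 31.4 and 30.6 CPM (log2 0.77 ± 0.08, edgeR adjusted p = 6.15e-07). Libraries of the groups did not overlap in any of these, and 44.3% of all tested genes also lay wholly above control. The Fanconi pair that clamps onto DNA fell together, Fancd2 by 0.66 ± 0.07 (edgeR adjusted p = 2.15e-06) and Fanci by 0.82 ± 0.07 (edgeR adjusted p = 2.37e-07) on the log2 scale.

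The durations of KCl were set against each other directly, a comparison chosen after the data were seen. From 2 h to 7 h 17 members rose and 12 fell, where 35.1% of tested genes rose, 33.7% fell and 68.8% were called in all. By more than 1 on the log2 scale 6 rose and 3 fell, against 11.9% and 9.96% of all genes. Palb2 came back 4.81-fold, to 11.1 and 9.05 CPM (log2 2.27 ± 0.16, edgeR adjusted p = 1.62e-08). Xrcc2 passed its control, at 28.7 and 31.8 CPM (log2 2.21 ± 0.10 from 2 h to 7 h, edgeR adjusted p = 3.09e-10). Prkdc returned to 10.5 and 10.1 CPM (log2 -1.10 ± 0.14, edgeR adjusted p = 7.01e-06). Against control, 8 members were called in opposite directions at the 2 durations, a count not made over all genes. Exo1, Xrcc2, Fancc, Lig4 and Polq were low at 2 h and high at 7 h, while Atr, Brca2 and Fancd2 were high and then low.

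**Figure D4:**
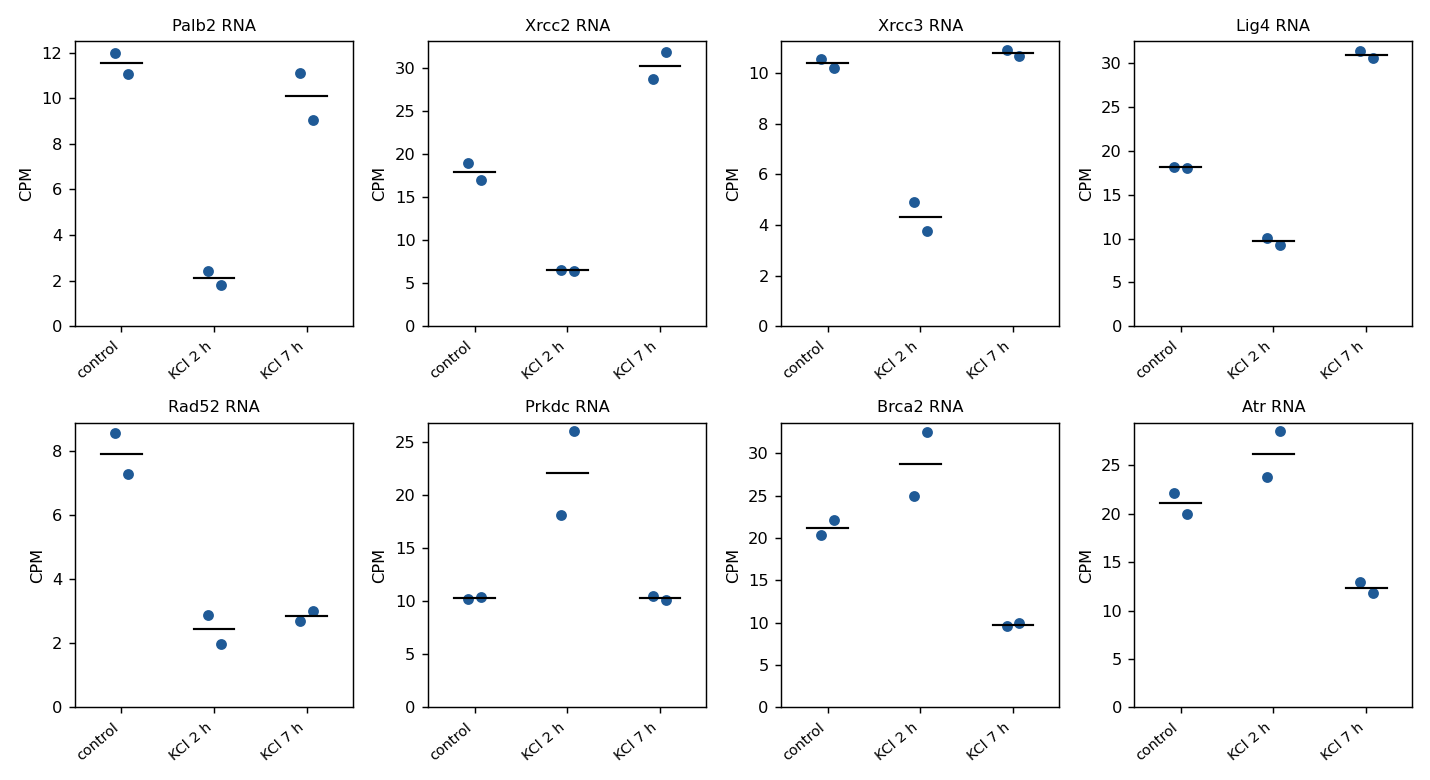
RNA of 8 members in CPM (y axes from 0) is shown per library (points) with group means (lines) in control, at 2 h and at 7 h of KCl. Palb2, Xrcc2, Xrcc3 and Lig4 drop and return, Rad52 stays low, Prkdc rises and returns, and Brca2 and Atr end below control.

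H2O2 for 2 h lowered more members than it raised. The RNA of 5 rose and of 18 fell, where 27.3% of all tested genes rose, 26.5% fell and 53.9% were called in all. The member median was -0.20 against 0 over all genes. Only Pif1 passed a log2 change of 1, downward, against 11% of all genes upward and 2.32% downward. After Pif1, Lig4 fell the most, from 18.1 and 18.1 CPM to 9.14 and 10.2 CPM (log2 -0.90 ± 0.08, edgeR adjusted p = 6.48e-07). Rad54l, a translocase of recombination, fell from 55.6 and 53.9 CPM to 34.6 and 36.2 CPM (log2 -0.63 ± 0.07, edgeR adjusted p = 8.22e-06). The groups did not overlap, and 39% of all tested genes also lay wholly below control. Of the 7 Fanconi genes 4 fell and none rose, from Fancg at -0.54 ± 0.10 (edgeR adjusted p = 0.000599) to Fanci at -0.20 ± 0.07 (edgeR adjusted p = 0.0224). In the same libraries 17 of 20 G2 and M phase genes fell and none rose (median -0.41), with sums of 2114 and 2136 TPM against 2817 and 2829 TPM. Of 20 S phase genes 3 rose and 7 fell, and of 8 p53 targets 4 rose and 2 fell, with sums of 789.5 and 766.4 TPM against 455.9 and 484.5 TPM. Their part in the members' changes was not tested.

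Rbbp8, Chek1 and Prkdc had the largest rises at 2 h of H2O2. Rbbp8, which starts end resection, went from 58.9 and 56.0 CPM to 75.9 and 78.9 CPM (log2 0.43 ± 0.06, edgeR adjusted p = 2.46e-05). Chek1, the kinase downstream of ATR, went from 30.2 and 30.5 CPM to 38.9 and 41.7 CPM (log2 0.41 ± 0.07, edgeR adjusted p = 0.000134). Prkdc went from 10.2 and 10.4 CPM to 13.4 and 14.8 CPM (log2 0.45 ± 0.13, edgeR adjusted p = 0.0104). The Prkdc call was lost without the first control (edgeR adjusted p = 0.0607) or the second H2O2 library (edgeR adjusted p = 0.0827). Set directly against 2 h of KCl, H2O2 left Palb2 (log2 1.85 ± 0.16, edgeR adjusted p = 3.66e-07), Rad52 (1.75 ± 0.16, edgeR adjusted p = 5.95e-07) and Xrcc2 (1.03 ± 0.10, edgeR adjusted p = 1.72e-06) higher, and these 3 alone passed 1 on the log2 scale (9.75% of all genes upward, 2.84% downward). In all 9 members were higher and 11 lower, where 27% and 24.2% of tested genes were, 51.3% together.

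At 7 h of H2O2 the RNA of 14 members passed the threshold upward and of 10 downward, where 39.4% and 31.1% of all tested genes did, 70.5% together. The member median was 0.07 and that of all genes 0.08. Rad51d, a recombination gene, stood at 15.7 and 15.5 CPM in control and 41.0 and 40.1 CPM in H2O2, a log2 difference of 1.38. Chek2, the kinase downstream of ATM, stood at 20.7 and 19.8 CPM and then 52.5 and 47.2 CPM, a difference of 1.30. Rad52 stood at 8.54 and 7.26 CPM and then 16.1 and 16.7 CPM, a difference of 1.05. These 3 were the members above 1 on the log2 scale, where 16.4% of all genes lay upward and 6.93% downward. The groups did not overlap in any of these 3, and 47.2% of all tested genes also lay wholly above control.

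On the other side, Wrn, a RecQ helicase, stood at 36.4 and 38.0 CPM in control and 22.1 and 22.4 CPM at 7 h of H2O2, a log2 difference of -0.74. Xrcc4, the scaffold of Lig4, stood at 10.4 and 9.85 CPM and then 7.19 and 5.42 CPM, a difference of -0.67. Apart from Pif1 no member lay below -1. None of the 7 Fanconi genes passed upward and 4 passed downward. Directly against 7 h of KCl, 18 members lay higher in H2O2 and 16 lower, where 41% and 37.4% of all genes did, 78.4% together. By more than 1 on the log2 scale 5 lay higher and 3 lower, against 19.6% and 14.3%. Rad52 differed the most upward, by 2.53 on the log2 scale, and Pif1 the most downward, by -3.79.

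Cell cycle genes moved in the libraries at 7 h as well. Of 20 genes of G2 and M phase, 19 were lower at 7 h of H2O2, and their summed RNA was 1053 and 1066 TPM against 2817 and 2829 TPM in control. Of 20 S phase genes 12 were higher and 1 lower, with sums of 4204 and 4248 TPM against 3569 and 3577 TPM. All 8 p53 targets were higher, with sums of 4665 and 4891 TPM against 456 and 485 TPM. Of all tested genes 39.4% were higher at 7 h of H2O2 and 31.1% lower. The p53 targets at 7 h of KCl summed to 435 and 438 TPM. The G2 and M genes, of which 13 rose and 1 fell, summed to 2921 and 3093 TPM, where 37.2% of all tested genes rose and 31.6% fell. After 2 h of KCl 6 G2 and M genes rose and 4 fell, and 8 S phase genes rose and 5 fell. That is 50% and 65% called, near the 54.2% of all tested genes. Their part in the members' changes was not tested.

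The 7 h response was also tested in footprints, whose libraries played no role in choosing Pif1. They read the same mRNAs, and no label says whether RNA and footprints came from separate cultures. For Pif1 they are therefore not an independent test. After H2O2 6 members rose and 3 fell, where 17.2% of all tested genes rose, 10.6% fell and 27.7% were called in all. Past 1 on the log2 scale 4 rose and 1 fell, against 13.4% and 5.15% of all genes, and on log2(TPM + 1) the split was 7 and 2. Chek2 footprints rose 3.29-fold, from 11.98 and 13.74 CPM to 41.3 and 43.5 CPM (log2 1.72 ± 0.23, edgeR adjusted p = 0.000114), and this call held without any 1 library of the 2 groups (highest edgeR adjusted p = 0.00322). Rad51d footprints rose 3.01-fold, from 5.38 and 5.22 CPM to 17.1 and 15.0 CPM (log2 1.59 ± 0.35, edgeR adjusted p = 0.00458). That call missed the threshold without the first H2O2 library (1.45, edgeR adjusted p = 0.0519). Both genes had non-overlapping groups and carry RNA values on the same side. Of all tested genes, 35.1% had footprints wholly above control.

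Xrcc3 footprints had the largest fitted rise, from 3.18 and 0.275 CPM to 7.69 and 6.05 CPM (log2 1.92 ± 0.64, edgeR adjusted p = 0.0405). The control rested on 13 and 1 counts, and the call was lost without the second control (1.10, edgeR adjusted p = 0.219) and without either H2O2 library (edgeR adjusted p = 0.211 and 0.117). Without the first control the fitted value was 4.42. Rad50, the clamp of the end-binding complex, rose by 0.88 ± 0.20, Chek1 by 1.00 ± 0.28 and the RecQ helicase Blm by 0.78 ± 0.20 on the log2 scale (edgeR adjusted p = 0.00456, 0.0181 and 0.0124). Beside Pif1, the falls were Fanca, of the Fanconi core, from 40.84 and 39.02 CPM to 24.5 and 23.9 CPM (log2 -0.72 ± 0.22, edgeR adjusted p = 0.0242), and Trp53bp1, which restrains resection, from 58.7 and 64.0 CPM to 45.0 and 36.9 CPM (log2 -0.58 ± 0.20, edgeR adjusted p = 0.0459). Without the second control library only 2 members were called in all, and without the first or the second H2O2 library 3 were. Each loss of 1 library took the calls of Fanca and Trp53bp1. In the same footprint libraries 15 of 20 G2 and M genes fell, from 2371 and 2402 TPM in sum to 1351 and 1538 TPM, and all 8 p53 targets rose, from 244 and 335 TPM to 5036 and 6708 TPM.

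At 2 h of H2O2 no member was called in footprints by edgeR or by DESeq2, where edgeR called 1.91% of all tested genes (1.14% higher, 0.768% lower, and past 1 on the log2 scale 0.986% and 0.512%), and 6 members had an unadjusted p under 0.05. At 2 h of KCl 1 member was called, the translocase Rad54b, where 1.79% of all genes rose, 5.06% fell and 6.86% were called in all (1.2% and 4.3% past 1 on the log2 scale). It went from 15.9 and 15.9 CPM to 33.6 and 33.0 CPM (log2 1.06 ± 0.25, edgeR adjusted p = 0.0246), and the call was lost without any 1 of the 4 libraries (edgeR adjusted p = 0.104 to 0.115). Palb2, whose RNA fell so far, had footprints of 1.34 and 1.39 CPM against 4.89 and 4.12 CPM in control, from 4 and 4 counts against 20 and 15. The difference of -1.70 ± 0.60 was not called (edgeR adjusted p = 0.123), and neither was that of Xrcc2 at -1.36 ± 0.41 (edgeR adjusted p = 0.0663).

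After 7 h of KCl the footprints of 2 members rose and of 6 fell, where 10.5% and 9.83% of all genes did, 20.4% together. Changes above 1 on the log2 scale were seen for 1 upward and 2 downward, against 6.08% and 6.63%. On log2(TPM + 1) none rose and 3 fell. Brca2 footprints fell 5.14-fold, from 17.4 and 16.8 CPM to 4.88 and 1.99 CPM (log2 -2.36 ± 0.38, edgeR adjusted p = 0.00123), and the call held without any 1 library (highest edgeR adjusted p = 0.0214). Without the second KCl library it was -1.80. Rad52 fell from 3.67 and 5.50 CPM to 0.751 and 1.42 CPM (log2 -1.99 ± 0.62, edgeR adjusted p = 0.0377), from 15 and 20 counts to 2 and 5. Fancd2 fell from 33.0 and 41.2 CPM to 13.9 and 23.3 CPM (log2 -0.98 ± 0.28, edgeR adjusted p = 0.0257). Control and KCl libraries did not overlap in these genes, and 32.1% of all tested genes also lay wholly below control. The Rad52 call was lost without any 1 of the 4 libraries (edgeR adjusted p = 0.0526 to 0.185). That of Fancd2 was lost without the second control (edgeR adjusted p = 0.147) or the first KCl library (edgeR adjusted p = 0.188).

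Mre11a, the nuclease of the end-binding complex, fell by 0.89 ± 0.21, Xrcc5 by 0.83 ± 0.26 and Bard1 by 0.76 ± 0.24 on the log2 scale in the same footprints (edgeR adjusted p = 0.0112, 0.0364 and 0.0374). Lig4 rose from 18.8 and 14.6 CPM to 33.4 and 43.1 CPM (log2 1.197 ± 0.31, edgeR adjusted p = 0.0168). Exo1 rose from 28.6 and 23.9 CPM to 48.1 and 40.6 CPM (log2 0.75 ± 0.22, edgeR adjusted p = 0.0309). The Lig4 call was lost without the second control (edgeR adjusted p = 0.109) or the second KCl library (edgeR adjusted p = 0.129), and that of Exo1 without any 1 of the 4 (edgeR adjusted p = 0.0639 to 0.189). The number called was 4, 1, 2 and 4 without the first control, the second control, the first KCl and the second KCl library. Between the stresses at 7 h, 11 members had more footprints in H2O2 and 6 fewer, where 23.5% and 17.8% of all genes did, 41.2% together. Differences above 1 on the log2 scale were seen for 5 upward and 2 downward, against 18.3% and 9.63%. The count called was 10 without any 1 of the 4 libraries. Rad52 (log2 2.82 ± 0.58), Rad51d (2.54 ± 0.40) and Brca2 (2.40 ± 0.38) lay highest in H2O2 (edgeR adjusted p = 0.00188, 0.000291 and 0.000276), and Fancm, after Pif1, lowest (-1.40 ± 0.29, edgeR adjusted p = 0.00198).

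**Figure D5:**
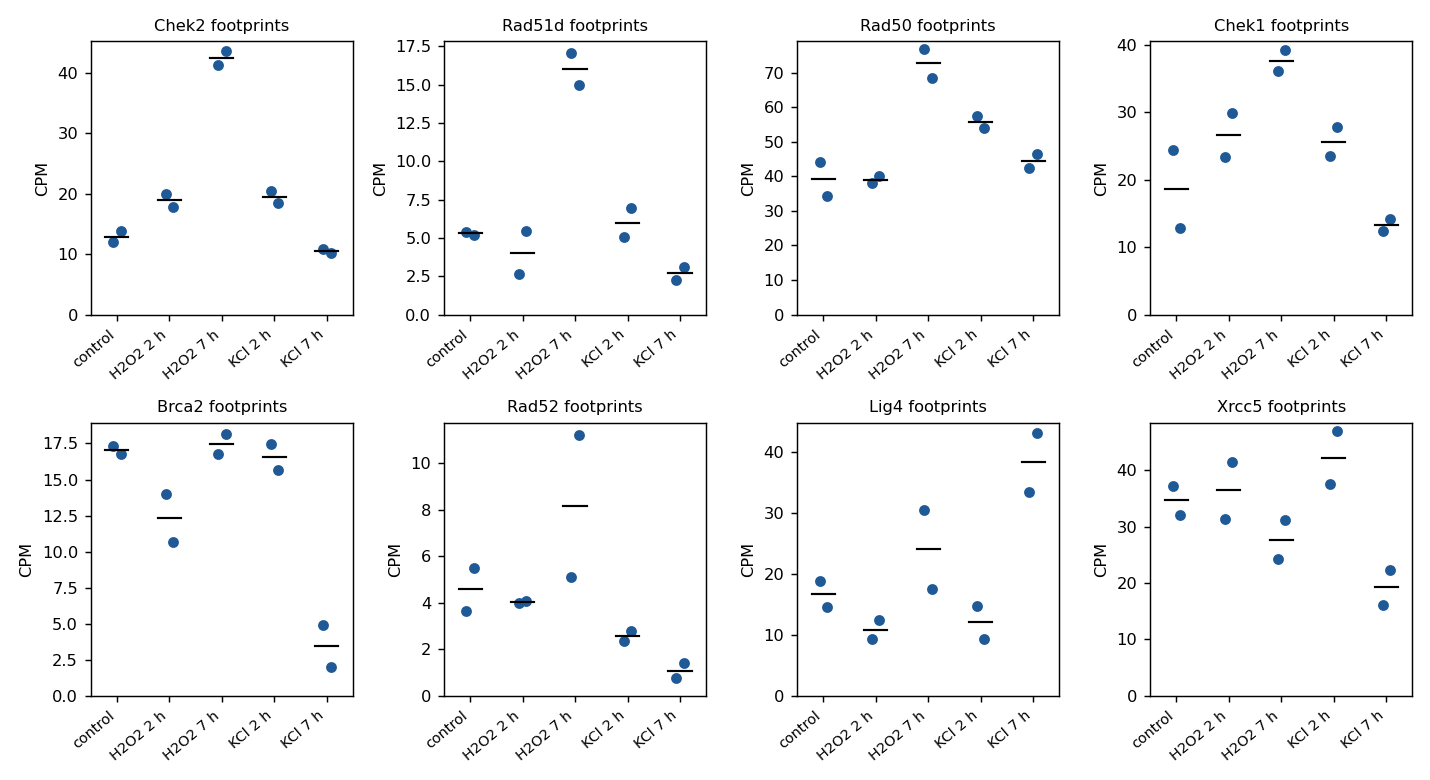
Footprints of 8 members in CPM (y axes from 0) are shown per library (points) with group means (lines) in control, H2O2 and KCl. Chek2, Rad51d, Rad50 and Chek1 are highest at 7 h of H2O2, Brca2, Rad52 and Xrcc5 are lowest at 7 h of KCl, and Lig4 is highest there.

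Translational efficiency changed for the most members at 2 h of KCl. At 2 h of KCl 8 rose and none fell, where 3.58% of all tested genes rose, 9.18% fell and 12.8% were called in all. A rise above 1 on the log2 scale was seen for 2, against 1.51% of all genes upward and 5.75% downward, and the member median was 0.43 against -0.02 over all genes. The counts include Pif1, whose value is a description. Besides Pif1 these were the Fanconi genes Fancg (log2 1.21 ± 0.27, edgeR adjusted p = 0.00606), Fancc (0.85 ± 0.23, edgeR adjusted p = 0.0192) and Fanca (0.72 ± 0.17, edgeR adjusted p = 0.0109), with Rad54b (0.94 ± 0.20, edgeR adjusted p = 0.0054), Blm, Chek2 and Xrcc6. The number called was 2 without the second KCl footprint library, 4 without the first control RNA library and 5 without the first KCl RNA library. RNA of Fancg fell at 2 h of KCl by 0.58 ± 0.11 (edgeR adjusted p = 0.000366), and its footprints stood at 15.1 and 13.9 CPM against 9.29 and 9.34 CPM in control. The median efficiency also rose outside the members. Of 57 other pathway genes 8 rose in efficiency at 2 h of KCl and 3 fell (14% and 5.26%), with a median of 0.29. The median was 0.25 for S phase genes, none of them called. It was 0.25 for G2 and M genes, of which 2 rose and none fell.

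At 2 h of H2O2 the efficiency of 3 members rose (Pif1, Chek2 and Rad54l) and of 2 fell (Brca2 and Rbbp8), where 3.98% and 7.46% of all genes did, 11.4% together (1.98% and 3.62% past 1 on the log2 scale). Chek2 gave 0.72 ± 0.20 (edgeR adjusted p = 0.0257) and Brca2 -0.94 ± 0.27 (edgeR adjusted p = 0.0329). The calls of Chek2, Brca2 and Rad54l were each lost in 8 of 10 alternative fits, and that of Rbbp8 in 7. Over these fits Chek2 ranged from 0.617 to 0.821 and Brca2 from -1.05 to -0.671. Without 1 library at a time, 1 to 4 members were called. At 7 h of KCl Pif1 was the 1 member past the threshold, upward, where 1.69% of all genes rose, 3.88% fell and 5.57% were called in all (0.821% and 2.37% past 1 on the log2 scale). At 7 h of H2O2 Brca1 (0.67) passed upward and Fanca (-0.72) downward, where 4.69% and 4.57% of all genes did, 9.27% together (2.46% and 2.25% past 1 on the log2 scale), and Pif1 stood at 2.10 with an SE of 0.66. The Pif1 values of all these contrasts use RNA libraries that chose it. At 7 h of H2O2 Brca1 missed the threshold in 8 of 10 alternative fits and Fanca in 7.

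Heat raised more members than it lowered at 44 °C. After 2 h 20 rose and 10 fell, where 35.4% of all tested genes rose, 35.7% fell and 71% were called in all. The member median was 0.15 against 0. Beyond a log2 change of 1, the RNA of 1 member rose and of 1 fell, against 6.09% and 4.88% of all genes. On log2(TPM + 1) the split was 21 and 6. Brca1, a ubiquitin ligase subunit that steers ends toward recombination and whose promoter is printed above, rose the most, 2.37-fold from 66.1 and 65.3 CPM to 157.4 and 154.1 CPM (log2 1.24 ± 0.04, edgeR adjusted p = 1.16e-11). Its binding partner Palb2 rose from 10.5 and 9.28 CPM to 18.1 and 17.6 CPM (log2 0.85 ± 0.08, edgeR adjusted p = 2.18e-07). Rad54b rose from 34.2 and 34.7 CPM to 60.4 and 63.1 CPM (log2 0.84 ± 0.05, edgeR adjusted p = 3.55e-09). None of the heated libraries of these genes overlapped the control, and 42.8% of all tested genes also lay wholly above it. In the same libraries 14 of 20 S phase genes rose and 3 fell, with sums of 4222 and 4097 TPM against 3373 and 3426 TPM, and 6 of 20 G2 and M genes rose and 6 fell. Their part in the members' changes was not tested.

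Xrcc5, a Ku subunit, fell the most at 44 °C, from 34.9 and 34.9 CPM to 17.8 and 16.9 CPM (log2 -1.004 ± 0.06, edgeR adjusted p = 3.29e-09). Fancc, of the Fanconi core, fell from 21.3 and 19.3 CPM to 13.0 and 13.0 CPM (log2 -0.64 ± 0.07, edgeR adjusted p = 2.08e-06). Brca2 fell from 35.4 and 32.3 CPM to 24.3 and 22.7 CPM (log2 -0.53 ± 0.07, edgeR adjusted p = 1.56e-05). Brca1 and Palb2 rose at 44 °C while Brca2, which PALB2 ties to BRCA1, fell.

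At 42 °C for 8 h changes were smaller, and no member reached 1 on the log2 scale, where 2.82% of all genes did upward and 5.1% downward. By CPM 18 members rose and 6 fell, where 31.7% and 31.9% of all genes did, 63.6% together, with a median of 0.12 against -0.01. On log2(TPM + 1), which makes no correction for composition, the split turned to 9 and 16 and the median to -0.09. Polq, the polymerase of a back-up end joining route, rose from 31.8 and 32.0 CPM to 49.5 and 47.7 CPM (log2 0.61 ± 0.07, edgeR adjusted p = 1.98e-06). Palb2 rose to 13.9 and 13.8 CPM (0.48 ± 0.08, edgeR adjusted p = 0.000129) and Rad51ap1 from 30.5 and 32.5 CPM to 45.5 and 42.1 CPM (0.48 ± 0.06, edgeR adjusted p = 1.3e-05). These 3 were called upward on both scales. Of the 20 S phase genes 10 rose and 4 fell by CPM, while their sums were 3031 and 3019 TPM against 3373 and 3426 TPM, and 10 G2 and M genes rose and 4 fell. Their part was not tested either.

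Below Pif1, the falls at 42 °C were slight. Xrcc2 fell from 21.1 and 21.1 CPM to 18.3 and 16.4 CPM (log2 -0.28 ± 0.08, edgeR adjusted p = 0.00555), a call lost without the second 42 °C library (edgeR adjusted p = 0.0758), and Fanci fell from 39.9 and 38.4 CPM to 33.6 and 32.5 CPM (-0.24 ± 0.06, edgeR adjusted p = 0.00352). Set against 44 °C directly, 8 members were higher at 42 °C and 17 lower, where 37.9% and 37.2% of all genes were, 75.1% together, and 6 and 28 on log2(TPM + 1). No member differed by more than 1 on the log2 scale, against 5.08% and 9.95% of all genes. Brca1 was lower by 0.90 ± 0.04 (edgeR adjusted p = 1.38e-10) and Xrcc5 higher by 0.86 ± 0.06 (edgeR adjusted p = 1.31e-08). The temperatures also differ in duration, and the parts of each cannot be told apart.

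Other genes of the pathway, 60 non-members of which 59 were tested in RNA, were counted in the same fits. At 2 h of KCl 5 rose and 36 fell (8.47% and 61%, against 27.2% and 27% of all tested genes) with a median of -0.35. At 2 h of H2O2 2 rose and 29 fell (3.39% and 49.2%, against 27.3% and 26.5%) with a median of -0.21. After 7 h of KCl 14 rose and 28 fell (23.7% and 47.5%, against 37.2% and 31.6%). At 7 h of H2O2 26 lay higher and 15 lower (44.1% and 25.4%, against 39.4% and 31.1%). At 44 °C 27 rose and 19 fell (45.8% and 32.2%, against 35.4% and 35.7%). At 42 °C 22 rose and 15 fell (37.3% and 25.4%, against 31.7% and 31.9%).

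By its title the study concerns transcription that runs past the end of a gene into its neighbour, and the authors' deposited calls of such reads cover part of the members. Of the members, 18 were the downstream gene of a pair and none of these was called to receive reads from its neighbour in any of 16 libraries, where 5.45% of 6399 pairs had such a call. The authors' deposited estimates are a ratio whose formula the files do not give. For Pif1 (after Spg21) the highest value was 0.0541, in the first library at 2 h of H2O2. Brip1 peaked at 0.235 in the first KCl library of 2 h, while the second held 0.0840. The highest Chek1 estimates were 0.145 and 0.170, after KCl for 2 h. H2O2 for 2 h gave Chek1 0.0782 and 0.0645, against 0.0151 and 0.0219 in control. Chek1 estimates after H2O2 for 7 h were 0.0094 and 0.0120. Heat of 44 °C gave Chek1 0.0878 and 0.0804, against 0.0218 and 0.0134 in heat controls. For Fancg, behind Pigo and Stoml2, the 42 °C libraries held 0.589 and 1.34. What these estimates add to the RNA counts was not tested. No source used here states whether counting used the strand, so reads of an overlapping gene on the other strand may be included.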

How the data were processed

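RNA-seq (NEB E7760 kit, polyadenylated RNA) and ribosome profiling of NIH3T3 cells were read from gene tables. Expected counts per gene and TPM were made by the authors before deposit. STAR, RSEM, Bowtie and the build mm10 are named in the submitters' processing notes, with no role or version. The authors' deposited read-in estimates are a ratio per pair of neighbouring genes and library, with true or false calls beside them. 12 columns of per-library values were matched to no sample and not used. Groups were taken from the labels, with 2 replicates each.

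Expected counts were rounded and fitted with edgeR 4.0.16 in R 4.3.3 (TMM factors, filterByExpr, quasi-likelihood F test), with Benjamini-Hochberg adjustment over all genes tested and a threshold of 0.05. The fits were heat RNA (6 libraries, 12747 genes), H2O2 and KCl RNA (10 libraries, 13256 genes), footprints (10 libraries, 10545 genes) and translational efficiency as an interaction term (20 libraries, 10480 genes). Each shares 1 estimate of the spread. The SE of a log2 fold change was its size over the square root of F. Contrasts against 1 control share those libraries. Named were up to 3 members per direction and contrast with the largest called change (average log2 CPM 1 or more), and Pif1 throughout. Others were named because of a count or a role, after their values were seen. The members and the gene lists were chosen with earlier results of these data known.

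Tested on simulated counts, the footprint fit recovered 27.2% of genes changed by 1 on the log2 scale and 87.2% of those changed by 2 (H2O2 for 2 h against control, 10256 genes), and the H2O2 and KCl RNA fit 90.3% and 98.1% (12850 genes). False calls made up 5.17% and 10.5% of calls. The simulation changed few genes in 1 group, fewer than were called in the RNA contrasts or in footprints at 7 h. The shares may differ there. The alternatives were DESeq2 1.42.0, limma 3.58.1 on log2(TPM + 1) with a pseudocount of 1, voom weights for efficiency, RLE size factors, no filter on low counts, a fit of only the groups compared, a fold threshold, a replicate block and leaving out each library.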

Additional observations from a re-analysis of the deposited data

Results flagged for a closer look

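The RNA of 29 of 39 members (74.4%) differed between 7 h and 2 h of KCl by a direct edgeR test in the same fit. Of all tested genes 68.8% did, and the comparison was added after the data were seen. Of the 29 members, 8 were called in opposite directions against the shared control at the 2 durations, a count not made over all genes. From 2 h to 7 h the log2 change was 1.26 for Exo1, 2.21 for Xrcc2, 0.83 for Fancc, 1.68 for Lig4 and 0.80 for Polq. It was -1.08 for Atr, -1.55 for Brca2 and -0.95 for Fancd2. Groups of 2 libraries are too small for a test of single outlying libraries.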

How the results depend on the processing

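The counts of members called in RNA kept within 1.5 times of their value under DESeq2, RLE factors, log2(TPM + 1), no filter, a fit of the 2 groups alone and the replicate block. With a fold threshold of 1 on the log2 scale, the RNA counts were 2 at 44 °C, 0 at 42 °C, 0 for 42 against 44 °C, 1 and 4 for H2O2 at 2 h and 7 h, 6 and 2 for KCl at 2 h and 7 h, 9 between the KCl durations, and 3 and 8 for H2O2 against KCl at 2 h and 7 h. The footprint counts were then 5 for H2O2 at 7 h, 3 for KCl at 7 h and 7 between them, and the efficiency counts 1 and 0 for H2O2 at 2 h and 7 h and 2 for KCl at 2 h. For footprints at 2 h of KCl log2(TPM + 1) gave 0, no filter 2 and RLE factors 2, and at 7 h of KCl DESeq2 gave 4 and log2(TPM + 1) 3. With voom weights the efficiency counts were 1 and 0 for H2O2 at 2 h and 7 h and 3 and 0 for KCl. The cause was not tested.

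Without 1 library at a time, RNA counts ranged over 28 to 29 at 44 °C, 20 to 23 at 42 °C, 24 to 26 between them, 16 to 23 and 19 to 23 for H2O2 at 2 h and 7 h, 24 to 29 and 27 to 28 for KCl, 27 to 32 between the KCl durations, and 17 to 21 and 32 to 33 between the stresses. Footprint counts ranged over 0 to 0 and 2 to 7 for H2O2, 0 to 0 and 1 to 4 for KCl, and 10 to 10 between the stresses at 7 h. Efficiency counts ranged over 1 to 4 and 0 to 3 for H2O2 and 2 to 6 and 0 to 2 for KCl. With 1 library left in a group, that library was assumed to vary like the others.

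Footprints of Pif1 at 2 h of KCl changed sign with log2(TPM + 1) (-0.0835), without the first control (-0.129) and without the second KCl library (-0.0394), and the highest value without 1 library was 0.443. For single genes 563 alternatives kept side and direction, 143 lost the call, 5 gained it and 3 reversed. On log2(TPM + 1) the median of the members at 42 °C was -0.0877. The alternative that takes a second row of a symbol gave no value, since no member had one.

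With the replicate number as a block, the counts were 32, 24 and 28 for heat, 25, 24, 29 and 27 for H2O2 and KCl RNA, 0, 9, 1 and 8 for footprints and 6, 2, 7 and 1 for efficiency. Deviations of same-numbered libraries correlated at -0.0305 to 0.125 in heat RNA and -0.0489 to 0.0474 in H2O2 and KCl RNA. In footprints they correlated at 0.186 to 0.392 in the 6 pairs of groups without 2 h of H2O2 and at -0.355 to -0.0538 in the 4 with it. Not every pair was over 0.1 and the labels state no shared batch, so the numbers were not taken to pair samples. Depth limits the footprints, with 1 to 26 counts for Pif1, Xrcc3 and Palb2 in control libraries.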
